A study of Mus musculus with 10 samples.

Results

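Keratins are the intermediate filament proteins of epithelial cells. The 10 keratin genes described here were chosen by name as the keratins of simple and of basal or stratified epithelium, and they are 10 of the 32285 genes counted. They comprise 4 type II genes (*Krt4*, *Krt5*, *Krt7* and *Krt8*) and 6 type I genes (*Krt13*, *Krt14*, *Krt15*, *Krt17*, *Krt18* and *Krt19*). The single-cell RNA counts came from the lower jaw of wild type NMRI mouse embryos, which carried no transgene and received no treatment. Whole mandibles were taken at E11.5, and lower incisor buds were dissected at E14.5 and E16.5. The labels name 4 samples for E11.5, 4 for E14.5 and 2 for E16.5, but the counts of a stage are pooled in 1 matrix and cannot be assigned to its samples. Each stage is therefore 1 sample without replicates, no test was made, and stage, dissection and sample cannot be told apart.

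A keratin filament is built from heterodimers of a type I and a type II keratin, so that a cell needs both kinds. *Krt5* and *Krt14* encode the usual pair of the basal layer of stratified epithelia, where *Krt15* is a further type I partner, and *Krt17* is typical of skin appendages and of activated epithelium. *Krt8* and *Krt18* encode the pair of simple epithelia, and *Krt7* and *Krt19* are found in simple and ductal epithelia. *Krt4* and *Krt13* encode the pair of the suprabasal layers of the non-cornified oral lining. The enamel organ of a developing tooth is an epithelium that buds from the oral lining, and K14 promoters are widely used to drive transgenes in it.

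In the mouse genome (GRCm38, GENCODE vM21) 5 of the genes lie on chromosome 11 and 5 on chromosome 15. The type I genes *Krt13* (100117327 to 100121566), *Krt15* (100131758 to 100135928), *Krt19* (100140810 to 100148665), *Krt14* (100203162 to 100207548) and *Krt17* (100256217 to 100261029) follow each other on the minus strand of chromosome 11. On chromosome 15 lie *Krt7* (101411043 to 101430313, plus strand), *Krt5* (101707070 to 101712898, minus strand), *Krt4* (101918535 to 101924735, minus strand) and *Krt8* (101996698 to 102004482, minus strand). *Krt18* (102028180 to 102032027, plus strand) is the type I gene that lies in the type II cluster. It is separated from *Krt8*, its usual partner, by 23697 bases that hold 0 annotated genes, and the genes point away from each other.

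Keratins of a type resemble each other, and 3′ counting reads short stretches near the end of a transcript, so the last 500 bases of each gene's longest coding transcript were searched for copies elsewhere. Matches of at least 90% identity over at least 91 bases were found for 4 of the 10 genes. The end of *Krt14* matched *Krt17* and *Krt16*, and the end of *Krt17* matched *Krt14* and *Krt16*. The end of *Krt18* matched 1 other gene, Gm5200, and the end of *Krt7* matched 48 other genes. The most alike coding stretch of 91 bases in *Krt14* and *Krt17* is printed below because it shows how little separates the 2 most abundant type I keratins in these data. It lies in exon 6 of 8 of each gene on the minus strand, at chr11:100204165-100204255 in *Krt14* and at chr11:100257490-100257580 in *Krt17*, and it ends 370 and 363 bases before the end of the respective transcript.
Krt14: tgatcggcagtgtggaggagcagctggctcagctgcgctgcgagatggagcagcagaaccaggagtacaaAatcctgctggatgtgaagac
Krt17: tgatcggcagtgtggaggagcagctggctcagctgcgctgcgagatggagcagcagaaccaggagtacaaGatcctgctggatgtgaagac
The capital marks the base at which the sequences differ, 1 of 91. A read of all 91 bases holds the capital base, whereas a shorter read within the stretch can miss it and then does not tell the genes apart. The split of counts between *Krt14* and *Krt17* is uncertain to the extent that such reads occurred. Levels of *Krt7* and *Krt18* carry a similar reservation for their own copies. An exon of *Krt5*, *Krt7* and *Krt8* overlaps a gene on the opposite strand (Gm44323, Gm671 and Gm36026), and Cell Ranger counts reads in the sense direction of a gene.

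RefSeq promoter entries were at hand for 6 of the 10 genes, of which those of *Krt7* and *Krt14* start far inside the GENCODE gene. A second entry of *Krt13* starts 989 bases inside the GENCODE gene and held neither motif named next. Of the other 4, *Krt5*, *Krt13* and *Krt18* held the letters TATAA or ATAAAA in the 40 bases before the start, and *Krt8* held neither. Windows of 30 bases around these letters, all upstream of the start, are shown because they belong to the basal type II gene, the simple type I gene and a gene with no count in the epithelial cells. Each is given 5′ to 3′ on the strand of the gene (GRCm38.p6), with TATAA or ATAAAA in capitals.
Krt5, chr15:101712913-101712942, minus strand: ctaaggggATAAAAggggacctcaaatctc
Krt13, chr11:100121574-100121603, minus strand: gaggacgcATAAAAggcatgcacggcaggg
Krt18, chr15:102028186-102028215, plus strand: tcccgcggcgaTATAAcaacaggtcgagga
Over the same 40 bases, TATAA or ATAAAA was present on the strand of the gene in 5.36% of all 32851 promoter entries. On either strand, TATAA was present in 5.38% and ATAAAA in 3.24% of them, and a run of TATAAAA holds both. The GENCODE model of *Krt18* starts 36 bases before the RefSeq start, so its window is annotated as transcribed in that model. A match of letters is not a mapped site.

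Barcodes were kept as cells from 700 genes upward and up to 20% mitochondrial UMIs (a UMI, or unique molecular identifier, counts 1 captured RNA molecule). This left 6573 cells (E11.5), 6091 cells (E14.5) and 4511 cells (E16.5), with median depths of 5664, 3471 and 6260 UMIs. The stages shared 13 to 17 cell barcodes pairwise. The E11.5 matrix stood apart in holding 0 UMIs of *Ddx3y*, a Y-linked gene, against 588 (E14.5) and 720 (E16.5). A cell was called epithelial when at least 2 of the 5 genes *Epcam*, *Dsp*, *Dsc3*, *Dsg2* and *Trp63* had a UMI and more of them than of the 5 markers of any other lineage, so no keratin was used in the call. Only 7 E11.5 cells were called epithelial (0.106% of cells, exact 95% interval 0.0428 to 0.219), against 779 E14.5 cells (12.8%, 12.0 to 13.7) and 1581 E16.5 cells (35.0%, 33.7 to 36.5). Stage and dissection cannot be told apart in these shares. Of the genes of the call, *Epcam* had a UMI in 88.8% (E14.5) and 83.7% (E16.5) of these cells. The others were found more often at E16.5. These shares were 77.8% and 85.0% for *Dsp*, 68.8% and 86.6% for *Dsc3*, 53.0% and 71.7% for *Dsg2*, and 55.5% and 78.7% for *Trp63*. *Dsc3* had 0 UMIs in the 7 epithelial cells of E11.5. The call favours deep cells, and the median depth of the epithelial cells was 15377, 5251 and 7808 UMIs. Cells left unassigned were 17.2% (E11.5), 29.2% (E14.5) and 12.4% (E16.5) of cells, with median depths of 2664, 2451 and 3567 UMIs. Exactly 2 of the 5 epithelial genes were found in 16 cells of E11.5, of which 2 were called epithelial. The unassigned cells of E11.5 held 4 of 12 *Krt14* UMIs and 4 of 7 *Krt19* UMIs, and those of E14.5 held 12.3% of the *Krt14* UMIs. Whether epithelial cells are among the unassigned cells was not tested. In the epithelial cells of E14.5 and E16.5, 4.11% and 4.93% also had at least 2 mesenchymal markers. A level below is the sum of a gene's counts in a group of cells per 1000000 UMIs of that group (CPM), and all intervals are exact 95% intervals that cover counting error only. A UMI count is not scaled to transcript length, since each molecule is counted once at its 3′ end.

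At E11.5 few member UMIs were counted in the kept cells, of which 7 were called epithelial, and most of these UMIs were from *Krt18*. The kept cells held 255 member UMIs in 47513863 UMIs, of which 183 (71.8%) were from *Krt18*. No member was detected in 6394 of 6573 cells, 1 member in 170 cells and 2 or more members in 9 cells, of which 5 were among the 7 called epithelial. In the 7 epithelial cells *Krt18* had 8, 8, 4, 3, 0, 2 and 1 UMIs from the deepest cell (40369 UMIs) to the shallowest (5097 UMIs). *Krt8* had 10 UMIs in 3 of these cells, 8 of them in the deepest cell. Over the 7 cells *Krt18* was at 209 CPM (137 to 306) and *Krt8* at 80.4 CPM (38.6 to 148). *Krt14* had 6 UMIs in 2 cells, *Krt15* 5 in 3 cells, *Krt5* 3 in 2 cells, *Krt19* 3 in 3 cells and *Krt7* 2 in 1 cell. *Krt17*, *Krt4* and *Krt13* had 0 UMIs in these 124340 UMIs, which allows up to 24.1 CPM, and 0 in all kept cells of E11.5, which allows up to 0.0631 CPM. *Krt8* and *Krt18* together gave 36 of the 55 member UMIs of these cells (65.5%, 51.4 to 77.8), and *Krt5*, *Krt14*, *Krt15* and *Krt17* together gave 14 (25.5%, 14.7 to 39.0). With 7 cells, no ratio of E14.5 over E11.5 was computed.

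**Figure D1:**
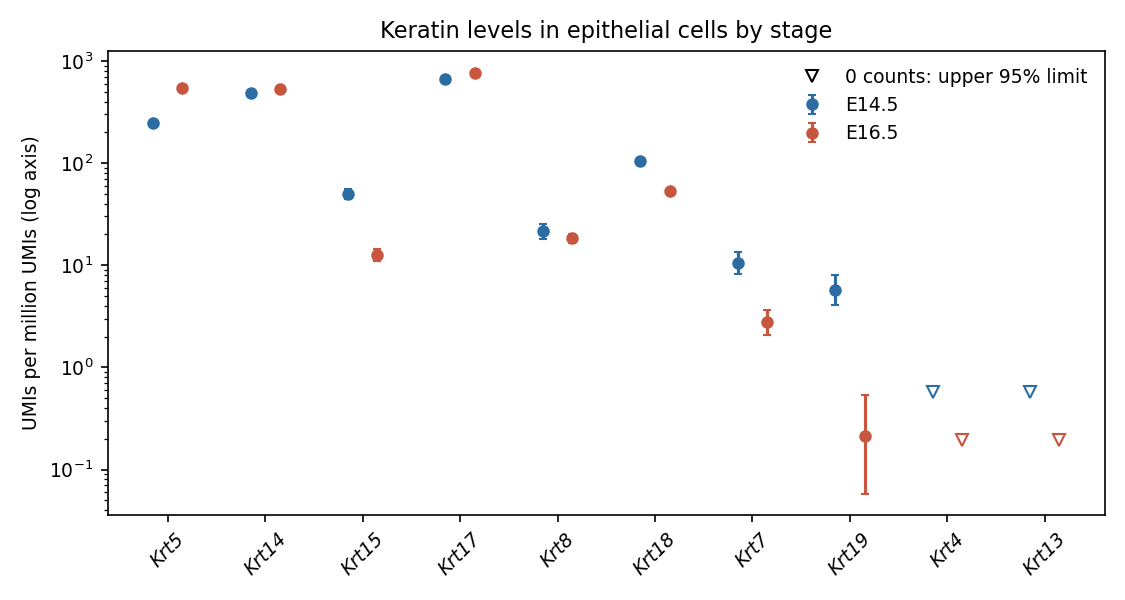
Level of each keratin in epithelial cells at E14.5 (blue) and E16.5 (red) in CPM on a log axis. Points are summed counts with exact Poisson 95% intervals (counting error only, 1 pooled matrix per stage), and open triangles give the upper limit for genes with 0 counts. *Krt17*, *Krt14* and *Krt5* stand above all other members at both stages, *Krt5* is higher and *Krt15* lower at E16.5, and *Krt4* and *Krt13* have no count.

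*Krt17*, *Krt14* and *Krt5* were the most abundant members in both incisor stages, and *Krt5* had the largest difference between the stages among these 3. *Krt5*, the basal type II keratin, was at 248 CPM at E14.5 (interval 236 to 260.4, 1593 UMIs) and at 541 CPM at E16.5 (531 to 552, 10211 UMIs). This is a log2 ratio of 1.10 (1.02 to 1.17) on the scale of CPM with 10 CPM added to each side, which is used for all ratios here. Its type I partner *Krt14* was at 486 CPM (469 to 503) and 535 CPM (525 to 546), a log2 ratio of 0.14 (0.08 to 0.20). *Krt17* was at 671 CPM (651 to 691) and 768 CPM (755 to 780.3), a log2 ratio of 0.19 (0.14 to 0.24). *Krt5* was thus well below *Krt14* at E14.5, while their intervals overlapped at E16.5. *Krt15*, the other basal type I keratin, differed the other way, at 49.5 CPM at E14.5 (44.2 to 55.2) and 12.6 CPM at E16.5 (11.01 to 14.3), a log2 ratio of -1.40 (-1.56 to -1.23).

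*Krt15* was counted in few cells. At E14.5 its 318 UMIs lay in 75 of 779 epithelial cells, and the 10 cells with the most held 160 UMIs, 50.3% of them, with 33 UMIs in 1 cell. At E16.5 its 237 UMIs lay in 102 of 1581 cells, and the 10 highest held 35.4%. When each cell weighed equally, as the mean of the cells' own CPM, the log2 ratio of *Krt15* was -1.12. At equal depth (thinning is described below), cells with a UMI of *Meis2* were 9.28% (E14.5) and 1.20% (E16.5) of epithelial cells. In the cells without a UMI of *Meis2*, *Krt15* was at 21.7 CPM at E14.5 (28 UMIs) and 17.5 CPM at E16.5 (52 UMIs). How much of the stage difference lies in the cells with *Meis2* was not tested.

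*Krt18* and *Krt8*, the simple pair, were far below *Krt5*, *Krt14* and *Krt17* and did not reach the fold used here. *Krt18* was above *Krt15* at both stages, and *Krt8* was above *Krt15* at E16.5. *Krt18* was at 104 CPM at E14.5 (96.5 to 112) and 52.7 CPM at E16.5 (49.5 to 56.1), a log2 ratio of -0.87 (-0.99 to -0.74). *Krt8*, its type II partner, was at 21.5 CPM (18.04 to 25.4) and 18.3 CPM (16.46 to 20.4), a log2 ratio of -0.15 (-0.35 to 0.04) whose interval includes 0. *Krt18* was thus counted more often than *Krt8* at both stages, with 670 against 138 UMIs (E14.5) and 995 against 346 UMIs (E16.5).

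*Krt7* and *Krt19* were near the limit of detection and lower at E16.5. *Krt7* was at 10.6 CPM at E14.5 (8.22 to 13.4) and 2.76 CPM at E16.5 (2.06 to 3.61), a log2 ratio of -0.69 (-0.87 to -0.50) in which the 10 CPM added weigh heavily. *Krt19* was at 5.76 CPM (4.05 to 7.94, 37 UMIs) and 0.212 CPM (0.0578 to 0.543, 4 UMIs), too few counts for the comparison over all genes. *Krt4* and *Krt13*, the pair of the suprabasal oral lining, had 0 UMIs in the epithelial cells of every stage, which allows up to 0.467 CPM at E14.5 and 0.159 CPM at E16.5. *Krt4* was at 0 in all kept cells of every stage, and *Krt13* had 3 UMIs in all, 2 in mesenchymal and 1 in unassigned cells of E14.5.

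A gene was counted as past the fold at a log2 ratio of at least 1 in either direction, among the 11649 genes with at least 50 UMIs over both stages. Of the 10 members, 7 had enough counts to be compared, and 1 of these was higher at E16.5 (*Krt5*) and 1 lower (*Krt15*). Over all genes compared, 1.24% were higher and 0.326% lower by this fold. The median log2 ratio was -0.15 over the 7 members and 0.09 over all genes. Of the genes of the epithelial call, *Dsc3* (1.02) and *Trp63* (1.19) were also higher by this fold. *Epcam* (-0.24), *Dsp* (0.54) and *Dsg2* (0.55) were within it. *Krt5* lay close to the fold, and it was no longer past it when epithelial cells with at least 2 markers of another lineage were left out (0.99) or when 50 CPM were added (0.99).

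The share of the member UMIs in epithelial cells that came from type II genes was 17.5% at E14.5 (16.8 to 18.3) and 29.1% at E16.5 (28.7 to 29.6). *Krt5* made up 15.5% and 28.0% of them, while *Krt14* gave 30.4% and 27.7% and *Krt17* gave 42.0% and 39.8%. *Krt8* and *Krt18* together gave 7.88% (7.37 to 8.42) and 3.68% (3.49 to 3.88). The 4 basal members *Krt5*, *Krt14*, *Krt15* and *Krt17* gave 91.1% (90.5 to 91.6) and 96.2% (96.0 to 96.4). The members summed to 1596 CPM (E14.5) and 1931 CPM (E16.5). Type I UMIs outnumbered type II UMIs at both stages. The 43 other keratin genes in the files added 567 UMIs in the epithelial cells of E14.5 and 1824 in those of E16.5, against 10253 and 36428 from the members.

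**Figure D2:**
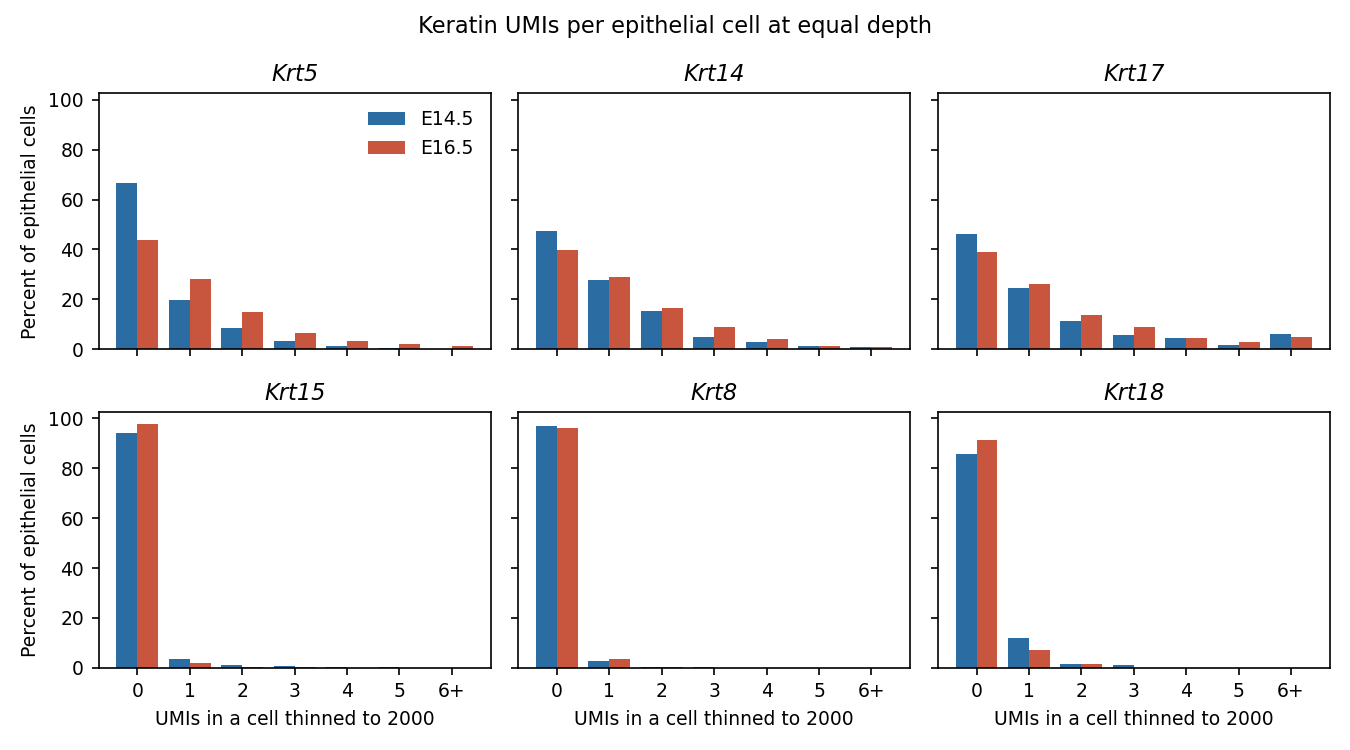
UMIs of 6 keratins per epithelial cell after each cell was thinned to 2000 UMIs, as a percent of 711 E14.5 cells (blue) and 1505 E16.5 cells (red). *Krt5* has 0 UMIs in 66.5% (E14.5) and 43.8% (E16.5) of cells, *Krt14* and *Krt17* shift less, and *Krt15*, *Krt8* and *Krt18* are at 0 in most cells.

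To compare cells at equal depth, each cell was thinned at random to 2000 UMIs, which left out 68 epithelial cells of E14.5 and 76 of E16.5. At this depth *Krt5* had a UMI in 33.5% of 711 cells at E14.5 (30.01 to 37.1) and in 56.2% of 1505 cells at E16.5 (53.7 to 58.7). Without thinning these shares were 51.7% and 83.4%. *Krt14* had a UMI in 52.7% (49.0 to 56.5) and 60.4% (57.9 to 62.9), and *Krt17* in 53.9% (50.1 to 57.6) and 61.2% (58.7 to 63.7). Unthinned shares were 78.9% and 88.3% for *Krt14* and 71.5% and 87.5% for *Krt17*. *Krt18* had a UMI in 14.2% (11.7 to 16.99) and 8.70% (7.33 to 10.2), *Krt8* in 3.09% (1.95 to 4.65) and 3.79% (2.88 to 4.88), and *Krt15* in 5.77% (4.17 to 7.74) and 2.39% (1.68 to 3.296). *Krt17* was the most uneven of the abundant members, with 6 or more UMIs in 6.05% of thinned cells at E14.5 against 0.985% for *Krt14* and 0% for *Krt5*. The same shares at E16.5 were 5.05% for *Krt17*, 0.731% for *Krt14* and 1.20% for *Krt5*. Without thinning, the most UMIs in a cell were 174 (E14.5) and 271 (E16.5) for *Krt17*, 52 and 72 for *Krt14*, and 96 and 143 for *Krt5*.

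The share of thinned cells with at least 1 type I and 1 type II member was 32.2% at E14.5 (28.8 to 35.8) and 51.5% at E16.5 (48.9 to 54.0). Cells with type I members only were 47.7% (44.0 to 51.4) and 32.6% (30.3 to 35.1), and cells with type II members only were 4.22% (2.86 to 5.97) and 7.44% (6.17 to 8.89). No member was detected in 15.9% (13.3 to 18.8) and 8.44% (7.08 to 9.96). *Krt5*, *Krt14* and *Krt17* were detected together in 15.9% (13.3 to 18.8) and 27.7% (25.5 to 30.04) of cells. These shares are set by depth as well as by expression, since 1 UMI in 2000 corresponds to 500 CPM.

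**Figure D3:**
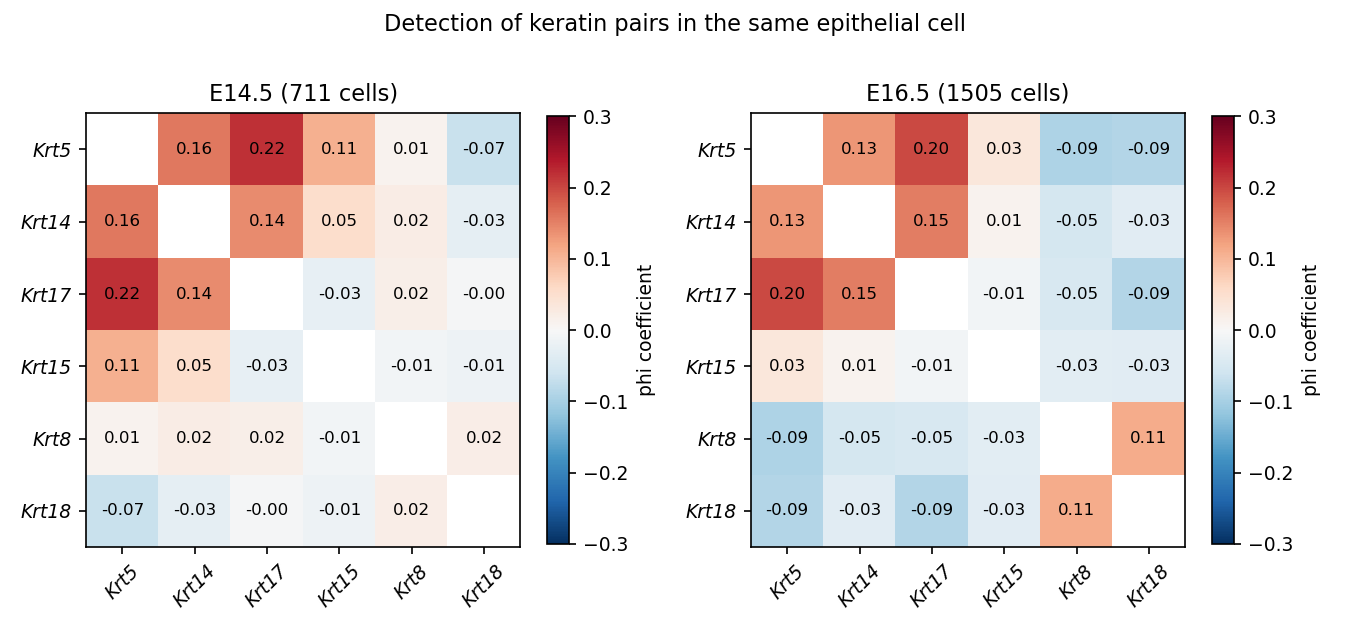
Phi coefficient (correlation of detection, from -1 to 1) for pairs of 6 keratins across epithelial cells thinned to 2000 UMIs, at E14.5 (left, 711 cells) and E16.5 (right, 1505 cells). *Krt5*, *Krt14* and *Krt17* form a block of positive values at both stages, and the pair *Krt8* and *Krt18* is positive at E16.5 (0.11) while both are negative with *Krt5*.

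Among the known filament partners, *Krt5* and *Krt17* were found in the same cell somewhat more often than the product of their single shares. *Krt5* and *Krt17* were together in 23.2% of cells at E14.5 (20.1 to 26.5, product 18.03%, phi 0.22) and in 39.2% at E16.5 (36.7 to 41.7, product 34.4%, phi 0.20). *Krt5* and *Krt14* were together in 21.4% (18.4 to 24.6, product 17.7%, phi 0.16) and 37.1% (34.7 to 39.6, product 34.0%, phi 0.13). The type I genes *Krt14* and *Krt17*, which do not pair with each other and share the stretch printed above, were together in 31.9% (28.5 to 35.5, product 28.4%, phi 0.14) and 40.6% (38.1 to 43.1, product 37.0%, phi 0.15). *Krt5* and *Krt15* were together in 22 cells at E14.5 (3.09%, 1.95 to 4.65, product 1.93%, phi 0.11). At E16.5 they were together in 24 cells (1.59%, 1.02 to 2.36, product 1.34%, phi 0.03), an interval that includes the product. Of the 41 and 36 cells with *Krt15*, 53.7% and 66.7% had *Krt5*, against 33.5% and 56.2% of all thinned cells.

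*Krt8* and *Krt18* were together in 4 of 711 cells at E14.5 (0.563%, 0.153 to 1.43, product 0.440%, phi 0.02) and in 14 of 1505 at E16.5 (0.9302%, 0.509 to 1.56, product 0.330%, phi 0.11). *Krt5* and *Krt18* had phi values of -0.07 and -0.09, and *Krt5* was in 25.7% and 42.0% of the cells with *Krt18*, against 33.5% and 56.2% of all thinned cells. They were together in 3.66% of cells at E14.5 (2.40 to 5.31), an interval that includes the product of 4.76%. At E16.5 they were together in 3.65% (2.76 to 4.73), below the product of 4.89%. *Krt7* and *Krt19*, and *Krt8* and *Krt19*, were each together in 1 cell at E14.5 and in 0 cells at E16.5. All phi values are descriptions across cells of 1 matrix and were small.

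**Figure D4:**
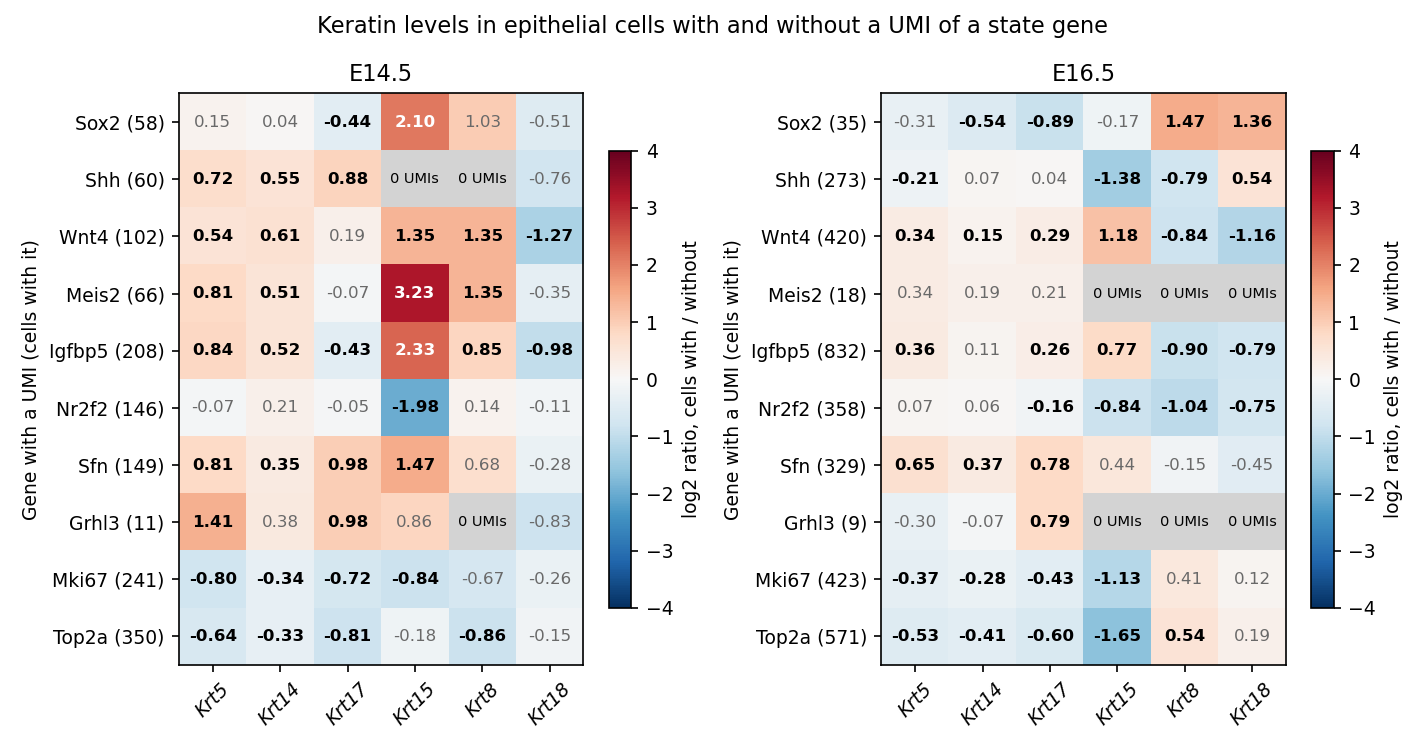
Log2 ratio (10 CPM added) of 6 keratins in epithelial cells with over those without a UMI of a state gene, each cell thinned to 2000 UMIs, at E14.5 (left) and E16.5 (right), with the number of cells with the gene in brackets. Bold values have a 95% interval for counting error that leaves out 0. *Krt15* spans the widest range, from 3.23 with *Meis2* to -1.98 with *Nr2f2* at E14.5, fields with 0 UMIs on one side are grey and carry no ratio, and *Krt5*, *Krt14* and *Krt17* are lower with *Mki67* and *Top2a* at both stages.

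Epithelial cells were then divided, at equal depth, by a UMI of 10 genes that mark dental or oral epithelial states or the cell cycle. *Krt15* differed most between such states at E14.5. In the 66 cells with *Meis2*, which encodes a homeobox factor, *Krt15* was at 288 CPM against 21.7 CPM in the 645 cells without it, a log2 ratio of 3.23 (2.61 to 3.81). These cells were 9.28% of the thinned cells and held 57.6% of the thinned *Krt15* UMIs. In the 208 cells with *Igfbp5*, an IGF binding protein gene, *Krt15* was at 120 CPM against 15.9 CPM (log2 ratio 2.33, 1.71 to 2.90), and in the 58 cells with *Sox2* it was at 181 CPM against 34.5 CPM (2.10, 1.37 to 2.79). In the 60 cells with *Shh*, the hedgehog ligand of the dental epithelium, *Krt15* had 0 UMIs against 50.7 CPM in the other cells. In the 146 cells with *Nr2f2* it was at 6.85 CPM (2 UMIs) against 56.6 CPM (-1.98, -2.65 to -0.88). Earlier results of these data had already shown *Krt15*, *Meis2* and *Igfbp5* high in the same group of E14.5 cells, so these values are not independent support of it.

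At E16.5 the *Krt15* ratios had the same sign as at E14.5 for *Wnt4*, *Igfbp5*, *Nr2f2*, *Sfn*, *Mki67* and *Top2a*. With *Wnt4*, a Wnt ligand, *Krt15* was at 35.7 CPM against 10.1 CPM (log2 ratio 1.18, 0.64 to 1.68), which had been 108 against 36.1 CPM at E14.5 (1.35, 0.65 to 2.02). With *Shh*, where *Krt15* had 0 UMIs at E14.5, it was at 1.83 CPM against 20.7 CPM (-1.38, -1.63 to -0.55, 1 UMI with *Shh*). The ratio was 0.77 (0.22 to 1.26) with *Igfbp5* and -0.84 (-1.37 to -0.14, 5 UMIs) with *Nr2f2*. It was -1.13 (-1.57 to -0.47, 4 UMIs) with *Mki67*, against -0.84 (-1.54 to -0.14) at E14.5. With *Sfn* it was 0.44 (-0.17 to 1.04), against 1.47 (0.84 to 2.08) at E14.5. With *Top2a*, a gene of dividing cells, it was -1.65 (-1.88 to -1.09, 2 UMIs with *Top2a*), against -0.18 (-0.79 to 0.43) at E14.5. With *Sox2* it was -0.17 (-1.42 to 1.74), an interval from 35 cells that includes 0. The 18 thinned cells with *Meis2* at E16.5 held 0 *Krt15* UMIs, against 17.5 CPM in the cells without it. The interval of this ratio (-1.46 to 2.05) includes 0 and lies below that of E14.5 (2.61 to 3.81). It rests on few cells and covers counting error only.

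The abundant basal members varied less. Cells with *Sfn*, which encodes 14-3-3 sigma of stratifying epithelia, had *Krt17* at 1188 CPM against 599 CPM at E14.5 (log2 ratio 0.98, 0.79 to 1.16) and at 1149 against 663 CPM at E16.5 (0.78, 0.66 to 0.91). *Krt5* was also higher in them, at 419 against 236 CPM (0.81, 0.50 to 1.11) and 769 against 486 CPM (0.65, 0.50 to 0.80). At E14.5 the cells with *Shh* had *Krt17* at 1250.0 CPM against 674 CPM (0.88, 0.63 to 1.13) and *Krt5* at 433 against 260 CPM (0.72, 0.28 to 1.13). At E16.5 the 273 cells with *Shh* had *Krt17* at 786 against 765 CPM (0.04, -0.12 to 0.19) and *Krt5* at 485 against 561 CPM (-0.21, -0.40 to -0.02). In cells with *Mki67*, a marker of cycling cells, *Krt5* was lower at both stages, at 180 against 322 CPM at E14.5 (-0.80, -1.15 to -0.47) and 452 against 585 CPM at E16.5 (-0.37, -0.53 to -0.20). *Krt17* was likewise lower, at 504 against 834 CPM (-0.72, -0.92 to -0.51) and 615 against 829 CPM (-0.43, -0.57 to -0.29).

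With *Wnt4*, *Krt18* differed in sign from *Krt5* and *Krt14* at both stages. It was lower in cells with *Wnt4*, at 34.3 against 96.9 CPM at E14.5 (log2 ratio -1.27, -2.20 to -0.36) and 22.6 against 63.1 CPM at E16.5 (-1.16, -1.68 to -0.64), while the ratios in these cells were 0.54 and 0.34 for *Krt5* and 0.61 and 0.15 for *Krt14*. The ratios of *Krt8* at E14.5 had the sign of those of *Krt5* for *Wnt4* (1.35), *Meis2* (1.35), *Igfbp5* (0.85) and *Top2a* (-0.86). At E16.5 the ratios of *Krt8* were -0.84 for *Wnt4*, -0.90 for *Igfbp5* and 0.54 for *Top2a*, opposite in sign to those of *Krt5*. These *Krt8* values come from 22 and 57 thinned cells with a *Krt8* UMI. With *Sox2* at E16.5, in 35 cells, *Krt18* was at 143 against 49.7 CPM (1.36, 0.37 to 2.22, 10 UMIs with *Sox2*). *Krt8* was at 71.4 against 19.4 CPM (1.47, 0.14 to 2.62, 5 UMIs), while *Krt17* was at 414 against 778 CPM (-0.89, -1.46 to -0.38). In the 58 cells with *Sox2* at E14.5 the ratio of *Krt18* was -0.51 (-1.58 to 0.46, 7 UMIs). That of *Krt8* was 1.03 (-0.21 to 2.15, 5 UMIs), and both intervals include 0. The ratio of *Krt17* was -0.44 (-0.82 to -0.07) in these cells. *Krt18* with *Mki67* was at 76.8 against 93.6 CPM and 55.6 against 50.4 CPM, with intervals that include 0.

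For each member found in at least 10% of the thinned epithelial cells of a stage, the 3 genes with the highest Pearson correlation across cells were taken and named where r was at least 0.2. At E14.5, over 2551 genes and 711 cells, *Krt5* was most like *Krt17* (0.29), *S100a6* (0.24) and *Anxa2* (0.23), which encode calcium-regulated proteins. *Krt17* was most like *S100a6* (0.33), *Krt5* (0.29) and *Atf3* (0.28), an immediate early transcription factor. At E16.5, over 2690 genes and 1505 cells, *Krt5* was most like *Krt17* (0.30), *Maf* (0.25) and *Gja1* (0.22), and *Krt17* was most like *Krt5* (0.30), *Maf* (0.27) and *S100a6* (0.22). *Krt14* had 1 gene above 0.2 at each stage, *Krt5* at E14.5 (0.21) and *Krt17* at E16.5 (0.22). *Krt18* met the share of cells at E14.5 and had no gene above 0.2. The cells share their matrix, so these values describe it and were not tested.

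**Figure D5:**
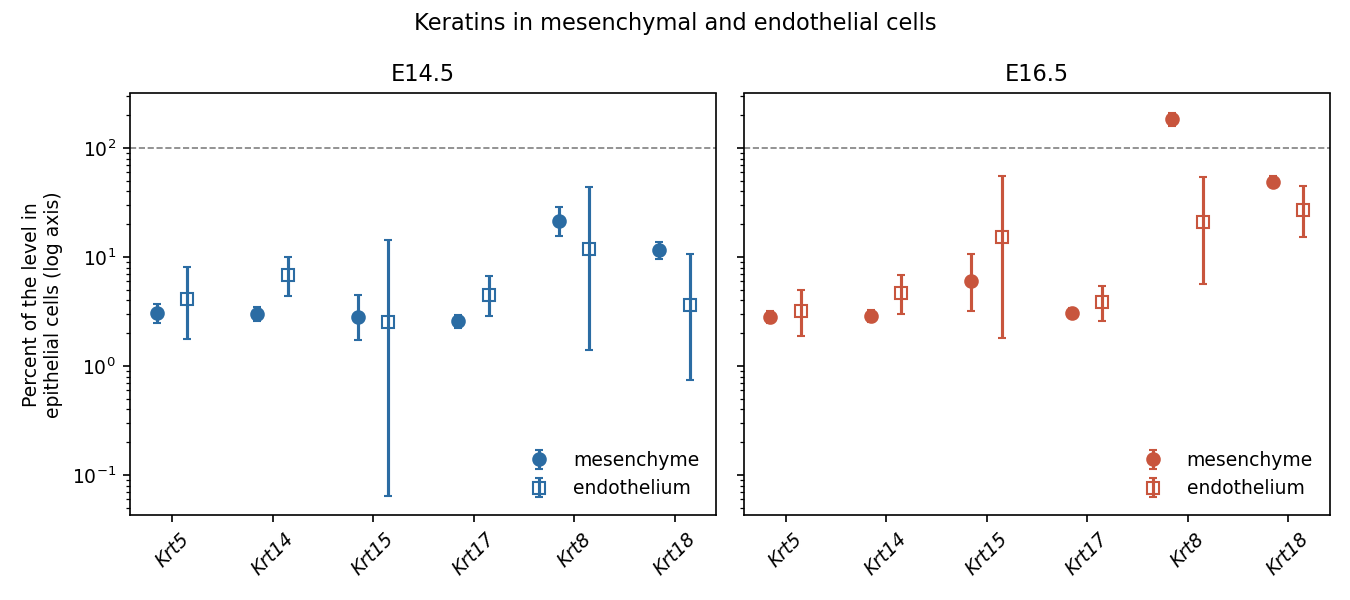
Level of 6 keratins in mesenchymal (filled circles) and endothelial cells (open squares) as a percent of the level in epithelial cells of the same stage, on a log axis with exact 95% intervals for counting error. The dashed line marks the epithelial level. *Krt5*, *Krt14* and *Krt17* lie near 3% in mesenchyme at both stages, and *Krt8* and *Krt18* lie above them, with *Krt8* at 184% at E16.5.

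In mesenchymal, immune and endothelial cells *Krt5*, *Krt14* and *Krt17* were found at a small fraction of their epithelial level. This fraction was much alike for these genes in mesenchyme, whereas *Krt8* and *Krt18* were higher there. In the 3184 mesenchymal cells of E14.5, *Krt5* was at 3.04% of the epithelial level (2.48 to 3.70), *Krt14* at 3.004% (2.60 to 3.46), *Krt15* at 2.85% (1.72 to 4.47) and *Krt17* at 2.56% (2.24 to 2.92). In the 2216 mesenchymal cells of E16.5 these values were 2.84% (2.50 to 3.21) for *Krt5*, 2.88% (2.54 to 3.25) for *Krt14*, 6.06% (3.18 to 10.6) for *Krt15* and 3.06% (2.76 to 3.38) for *Krt17*. No droplet background was estimated, so free RNA and expression cannot be told apart at these levels, and they are not read as expression. Immune cells of E14.5 had *Krt5* at 2.18%, *Krt14* at 3.33% and *Krt17* at 2.25% of the epithelial level, and endothelial cells 4.08%, 6.78% and 4.53%. The endothelial interval of *Krt14* (4.42 to 9.95) lay above the mesenchymal one, from 26 UMIs in 158 cells. The share of mesenchymal cells with a *Krt17* UMI was 6.50% at E14.5 (median depth 3936.5 UMIs) and 15.2% at E16.5 (median depth 6228.5). Erythroid cells, which should lack keratins, numbered 120 at E11.5, with 1 *Krt8* UMI and 0 of any other member. At E14.5 there were 21, with 5 UMIs of *Krt5*, 4 of *Krt14*, 9 of *Krt17* and 7 of *Krt18*. From these few UMIs the levels were 37.8 CPM for *Krt5* (12.3 to 88.3) and 30.3 CPM for *Krt14* (8.25 to 77.5). *Krt17* was at 68.1 CPM (31.2 to 129) and *Krt18* at 53.0 CPM (21.3 to 109). These UMIs lay in 2 cells for *Krt5*, 1 for *Krt14*, 5 for *Krt17* and 3 for *Krt18*. Each of these levels was above that in mesenchymal cells of E14.5, where *Krt18* was at 12.0 CPM (10.2 to 13.9). For *Krt14* the erythroid interval includes the mesenchymal level of 14.6 CPM (12.7 to 16.7).

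*Krt8* and *Krt18* exceeded that fraction in mesenchyme, and *Krt18* also in endothelial cells of E16.5. At E14.5 *Krt8* was at 4.58 CPM in mesenchymal cells (3.53 to 5.84), 21.3% of its epithelial level (15.6 to 28.8), and *Krt18* was at 12.0 CPM (10.2 to 13.9), 11.49% (9.65 to 13.6). At E16.5 *Krt8* was at 33.7 CPM in mesenchymal cells (31.0 to 36.6) and at 18.3 CPM in epithelial cells (16.46 to 20.4), a log2 ratio of epithelium over mesenchyme of -0.62 (-0.76 to -0.49). *Krt18* was at 25.9 CPM (23.5 to 28.4), 49.1% of its epithelial level (43.8 to 55.0). Endothelial cells of E16.5 had *Krt18* at 27.1% (15.1 to 44.9, 15 UMIs) and *Krt8* at 20.8% (5.63 to 53.7, 4 UMIs) of the epithelial level. *Krt5*, *Krt14* and *Krt17* were at 3.17%, 4.63% and 3.85% in them. In endothelial cells of E14.5, *Krt18* was at 3.64% (0.749 to 10.7, 3 UMIs) and *Krt8* at 11.8% (1.41 to 43.4, 2 UMIs). Of all *Krt8* UMIs in kept cells, 26.7% lay in mesenchymal cells of E14.5, and 56.5% in those of E16.5. A *Krt8* UMI was in 16.52% of mesenchymal cells at E16.5 (14.99 to 18.1) against 11.7% of epithelial cells (10.2 to 13.4), and thinned to 2000 UMIs in 7.57% (6.49 to 8.75) against 3.79% (2.88 to 4.88).

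*Krt8* and *Krt18* were as high in mesenchymal cells without a UMI of any epithelial marker. In the 1638 mesenchymal cells of E16.5 with 0 of the 5 epithelial genes, *Krt8* was at 34.8 CPM (31.5 to 38.3) and *Krt18* at 29.5 CPM (26.5 to 32.7), while *Krt5* was at 13.0 CPM and *Krt17* at 19.6 CPM. Without thinning, *Krt8* and *Krt18* were found in the same mesenchymal cell in 114 of 2216 cells (5.14%, 4.26 to 6.15), against a product of the single shares of 2.05%. Cells differed in depth here, and the part of depth in this excess was not tested. The unthinned share of epithelial cells of E16.5 with both was 6.33%, and the thinned shares given above are not comparable. The 3 genes by which the mesenchymal cells were further divided were picked after their values had been seen, so the following values are a description. Mesenchymal cells with a *Sfrp2* UMI, a secreted Wnt modulator, had *Krt8* at 56.5 CPM (51.7 to 61.6), and those without had 8.19 CPM (6.34 to 10.4). For *Col8a1*, a collagen gene, *Krt8* was at 62.1 CPM with and 6.33 CPM without it, and for *Smoc2*, a matricellular gene, at 65.9 and 8.46 CPM. *Krt18* was at 41.7 CPM with and 8.19 CPM without *Sfrp2*. *Krt5* did not differ in this way, at 15.98 CPM with *Sfrp2* (13.5 to 18.8) and 14.6 CPM without (12.1 to 17.5). The cells with *Sfrp2* were shallower, with a median of 5727.5 UMIs against 6954.5. At E14.5 *Krt8* was at 4.19 CPM with (1.54 to 9.12, 6 UMIs) and at 4.62 CPM without *Sfrp2* (3.52 to 5.96), a difference within these intervals. *Krt18* at E14.5 was at 45.4 CPM in the 89 mesenchymal cells with *Smoc2* (26.9 to 71.8, 18 UMIs) and at 11.02 CPM without it (9.34 to 12.9), while *Krt8* had 1 UMI in those 89 cells.

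At E11.5, where the mandible is mostly mesenchyme, 131 of the 183 *Krt18* UMIs lay in the 5139 mesenchymal cells (3.17 CPM, 2.65 to 3.76) and 16 UMIs of *Krt8* (0.387 CPM, 0.221 to 0.629). In these cells *Krt5* had 1 UMI, *Krt14* 2 and *Krt17* 0. The 4938 mesenchymal cells without an epithelial marker held 117 of these *Krt18* UMIs (3.01 CPM, 2.49 to 3.61).

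*Krt7* was found in immune cells. At E14.5 the 128 immune cells had *Krt7* at 19.4 CPM (11.51 to 30.7, 18 UMIs in 11 cells), which is 183% of the level in epithelial cells (103 to 312), while *Krt8* had 0 UMIs in them. Of these 11 cells, 3 had any of the 5 epithelial genes, and no cell held more than 3 *Krt7* UMIs. The 25 immune cells of E16.5 held 3 *Krt7* UMIs. In mesenchyme *Krt7* had 4 UMIs at each of these stages. The 48 genes that share part of the *Krt7* transcript end were named above as a limit on its counts, and their part in this result was not tested.

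The members were chosen as keratins of epithelium, so the counts of members that follow are a description and not independent support. Read against all genes, 7 of 7 members compared were higher in epithelial than in mesenchymal cells by a log2 ratio of at least 1 at E14.5, where 3.95% of 11130 genes were. *Krt7* stood on this threshold (1.001, 0.88 to 1.06) and *Krt8* close to it (1.11, 0.91 to 1.29). At E16.5 this held for 4 of 7 (*Krt5*, *Krt14*, *Krt15* and *Krt17*), where 3.47% of 12618 genes were, with *Krt15* close to the threshold (1.07, 0.97 to 1.14). The other 3 were *Krt18* at 0.81, *Krt7* at 0.32 and *Krt8* at -0.62. *Krt5*, *Krt14* and *Krt17* had log2 ratios of 3.88, 4.33 and 4.65 at E14.5 and of 4.44, 4.42 and 4.54 at E16.5. The median over the 7 members was 2.38 and 1.07, against 0.02 and 0.04 over all genes.

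A list of 34 other genes of the epithelial filament system (further keratins, vimentin, plakins, desmosomal plaque and hemidesmosome genes, and transcription factors of stratified epithelium) was set beside the members. Of its 25 genes compared between the stages, 2 were higher at E16.5 in epithelial cells, 0 lower and 23 within the fold, with a median log2 ratio of 0.26. The 2 were *Perp*, a desmosome-associated membrane protein, at 83.4 and 259 CPM (1.53, 1.41 to 1.65), and *Klf4*, a transcription factor of differentiating epithelium, at 42.3 and 107 CPM (1.16, 1.01 to 1.32). *Klf4* was not particular to epithelium. In mesenchymal cells it was at 76.9 CPM (E14.5) and 143 CPM (E16.5), higher than in epithelial cells at both stages though within the fold (-0.73 and -0.39). Over mesenchymal cells, 13 of 21 genes of the list were higher and 1 lower at E14.5, and 14 of 24 were higher and 1 lower at E16.5. The list was also chosen for epithelium, so these counts carry the same limit as those of the members. The lower gene was *Vim*, the vimentin gene of mesenchymal filaments, at 132 CPM in epithelial and 614 CPM in mesenchymal cells at E14.5 and at 153 and 771 CPM at E16.5.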

How the data were processed

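Dissociated cells of whole mandibles (E11.5) and lower incisor buds (E14.5, E16.5) were profiled with the 10x Genomics Chromium 3′ v3 kit. The authors made the deposited UMI counts with Cell Ranger 4.0.0 against mm10, as 1 matrix of whole, not normalized counts per stage. The 10 genes and all lists were chosen with earlier results of these data known.

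Each of the 3 stages was treated as 1 sample, so no p-value was computed. Barcodes with 700 or more genes and no more than 20% mitochondrial UMIs were kept. A cell took the lineage, of 8 lists of 5 markers, with the most markers having a UMI, if at least 2 and more than any other list. Counts were summed per group and scaled to CPM. Ratios are log2 of CPM with 10 added, over genes with at least 50 summed UMIs. A ratio of E14.5 over E11.5 had been planned and was not made, since the lists called 7 epithelial cells at E11.5, fewer than 50. Thinning to 2000 UMIs used a fixed seed (11). Doublets were not removed. A planned state gene and an alternative that used it are not reported here. Alternatives changed the cell filter, the number of epithelial genes needed, the call on thinned counts, cells with markers of another lineage, the 5% of cells with the highest Scrublet scores, the CPM added and the thinning. Intervals (95%) are exact Poisson, Clopper-Pearson or, for ratios, conditional binomial. Only the ratio intervals were checked on simulated counts. Those counts were drawn independently, so the check does not cover UMIs gathered in few cells. Genes named are the 10 members, genes of a fixed list of 34 past the fold, and up to 3 genes per member with r of at least 0.2 across cells. Lineage markers, state genes and the keratins counted in total are named besides. Tools were python 3.11.15, numpy 2.4.6, scipy 1.17.1, scanpy 1.11.5 (Scrublet) and blastn 2.17.0. Positions are from GENCODE vM21 and promoter windows from RefSeq (GRCm38.p6).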

Additional observations from a re-analysis of the deposited data

Results flagged for a closer look

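The filter on cells left out 2135 (E11.5), 2101 (E14.5) and 1208 (E16.5) barcodes that enter no comparison above. They held 34, 698 and 943 member UMIs, of 289, 13434 and 41257 member UMIs in all barcodes of these stages. These counts were noted because they lie in data that the report does not use and exceed the 3 counts that a count of 0 allows. The lineage of these barcodes was not called.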

How the results depend on the processing

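No paired analysis was possible because each stage is 1 pooled matrix, and leaving out a replicate was not possible for the same reason. Of the 70 member ratios of E16.5 over E14.5 under alternatives, 70 kept the sign of the reported value. Those with 1 or 50 CPM added could not change sign, so their agreement was fixed in advance.

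The share of cells called epithelial depended on the call. At E11.5 it was 0.259% when 1 of the 5 genes was enough and 0.0343% on thinned counts. At E14.5 it was 15.1% with 1 gene, 9.80% with 3 genes, 9.12% on thinned counts, 14.1% from 1000 genes upward and up to 10% mitochondrial UMIs, and 11.2% with at least 200 genes and no mitochondrial limit. At E16.5 it was 37.4% with 1 gene, 31.5% with 3 genes, 26.9% on thinned counts, 33.0% without cells holding 2 or more markers of another lineage, and 30.7% with at least 200 genes.

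The number of members higher at E16.5 was 0 in place of 1 without cells of mixed markers and with 50 CPM added. The number lower was 2 with 1 CPM added (*Krt15* at -1.90 and *Krt7* at -1.62) and 0 with 50 CPM added (*Krt15* at -0.67), as a larger addition draws ratios toward 0. The type II share of member UMIs at E16.5 was 29.8% on a thinned call and 28.3% without cells of mixed markers. Cells with *Krt5* and *Krt14* were 10.1% and 17.1% (E14.5 and E16.5) when thinned to 1000 UMIs, 46.6% and 76.3% unthinned, and 39.6% at E16.5 with at least 1000 genes. The *Krt8* ratio of epithelium over mesenchyme at E16.5 was -0.84 on a thinned call, an alternative added after the data were seen, and lay between -0.84 and -0.62 over the 8 alternatives run. Depth limits *Krt4*, *Krt13*, *Krt19* and *Krt7* most, and 1 matrix per stage gives no spread between embryos.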

Other observations

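Among the 43 other keratin genes of the files, 13 had 0 counts in the kept cells and 9 had at least 50. *Krt10*, the suprabasal type I keratin, had the most, with 1098 (E11.5), 819 (E14.5) and 1660 (E16.5) UMIs. Of these, 204 (E14.5) and 877 (E16.5) lay in epithelial cells, so most *Krt10* UMIs were outside the called epithelium at E14.5. *Krt75*, a hair follicle type II keratin, had 67 (E14.5) and 303 (E16.5) epithelial UMIs, and *Krt1*, the usual partner of *Krt10*, had 54 and 228. *Krt6a* had 70 and 74, and *Krt79* had 49 and 4. These genes were picked by their counts after the values had been seen.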
